A study of Mus musculus with 24 samples.

Results

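The 30 genes described here mark the 2 main glial cell types of the brain, 14 of them astrocytes and 16 of them oligodendrocytes and their precursors. They were picked by gene symbol, with no measured value in the rule, from a table of 19015 genes, and all 30 were found in it. The study compared mice with a knockout of Prxl2a, a gene for a protein with a peroxiredoxin-like fold, with wildtype mice. RNA was sequenced from brain, from inguinal adipose tissue, here IAT, from dorsal brown adipose tissue, here BAT, and from liver, with 3 knockout (KO) and 3 wildtype (WT) libraries per tissue, 24 libraries in 8 groups. All mice were female, aged 12 weeks and perfused with PBS before dissection. The design text gives 3 mice per genotype, so the libraries of a group were taken to come from separate mice. Libraries of different tissues may come from the same mouse. How the Prxl2a allele was made, the strain and the dissected brain region are not given in the labels.

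Astrocytes take up glutamate and potassium released by neurons, convert glutamate to glutamine, and reach blood vessels with end-feet rich in water channels. Oligodendrocytes wrap axons in myelin, a stack of membrane with its own set of proteins and galactolipids, and they arise from precursors that carry the proteoglycan Cspg4. Several of these proteins also work outside the brain, for example in folate, glutamine and bicarbonate handling, and Schwann cells of peripheral nerve make myelin with part of the same genes.

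Promoter sequences from RefSeq (GRCm38.p6) were at hand for 24 of the 30 genes, at 29 start sites, and those of Aqp4, Sox9, Mbp, Olig1, Sox10 and Fa2h were not among them. The 250 bases before each start were searched on both strands for ACAAAG, a core sequence bound by SOX proteins, the family of Sox9 and Sox10. Its reverse complement reads CTTTGT and was counted as a match. It was found before 5 of the 29 starts, in 4 genes, all of the oligodendrocyte group (Mag, Mobp, Cnp and Opalin). Of all 32851 promoters 16.5% held it, so the share among these starts was near the background. TATAAA was found before the starts of Olig2 and Aspa, against 7.59% of all promoters, and no start had both motifs. The members' windows held 0 to 44 CG pairs with a median of 4, and 18 of the 29 held at most 5, against 49.6% of all promoters. A match is a description of letters and says nothing of binding.

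Stretches from 250 to 51 bases before a start, 5′ to 3′ on the gene's strand, are given for 4 genes that recur in the results, with the motifs in capitals. Mobp (chr9:120149492-120149691, plus strand) had 6 matches, more than any other of these genes, and Opalin (chr19:41077164-41077363, minus strand) had 1. Both varied with the other myelin genes between brain libraries. Slc4a4 (chr5:89027716-89027915, plus strand, before the later of its 2 starts in the table) was the one gene called in liver and had no match. Aspa (chr11:73324688-73324887, minus strand) was higher in fat than in brain and held TATAAA.
Mobp: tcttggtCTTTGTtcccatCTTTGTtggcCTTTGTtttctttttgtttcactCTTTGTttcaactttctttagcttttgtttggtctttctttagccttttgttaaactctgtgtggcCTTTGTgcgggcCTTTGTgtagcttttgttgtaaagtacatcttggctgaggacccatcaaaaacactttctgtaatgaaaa
Opalin: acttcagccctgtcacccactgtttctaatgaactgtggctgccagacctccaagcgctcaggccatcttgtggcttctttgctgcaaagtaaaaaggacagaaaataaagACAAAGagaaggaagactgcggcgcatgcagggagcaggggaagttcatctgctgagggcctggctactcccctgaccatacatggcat
Slc4a4: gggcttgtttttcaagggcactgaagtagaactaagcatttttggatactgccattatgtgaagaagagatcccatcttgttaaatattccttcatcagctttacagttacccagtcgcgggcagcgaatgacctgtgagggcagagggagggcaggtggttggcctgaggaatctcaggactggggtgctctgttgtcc
Aspa: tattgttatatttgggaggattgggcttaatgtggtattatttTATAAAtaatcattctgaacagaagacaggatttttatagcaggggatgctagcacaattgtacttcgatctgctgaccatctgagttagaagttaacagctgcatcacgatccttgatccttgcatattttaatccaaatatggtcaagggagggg

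The 6 brain libraries held 15788266 to 17293215 counts each, and the 18 others held 12327459 to 18257788. Prxl2a was lower in all 3 KO libraries than in all 3 WT libraries of every tissue, and in brain it had 9.36, 9.56 and 11.4 TPM in KO against 195, 146 and 212 TPM in WT. TPM, the authors' transcript abundances scaled by length and library total, are used here for levels. The brain label was checked on 10 neuron genes, whose summed level was 6957 to 8819 TPM in KO brain and 7268 to 8710 TPM in WT brain, and at most 16.5 TPM in any library of another tissue. Brain libraries differed in the levels of region markers, and the cause was not tested. The 12 striatum genes summed to 447, 1515 and 483 TPM in KO replicates 1 to 3 and to 2324, 1889 and 555 TPM in WT replicates 1 to 3. Olfactory bulb genes, 3 in the list, summed to 67.7 TPM in WT replicate 1 and 6.57 to 11.6 TPM in the other brain libraries. Cerebellum genes, 8 in the list, summed to 101 TPM in KO replicate 1 and 26.0 to 62.7 TPM in the others. Summed over 10 choroid plexus genes, levels were 641, 15.9 and 301 TPM in KO and 119.6, 269 and 2206 TPM in WT. Ttr made up most of each sum, with 612, 10.8 and 292 TPM in KO and 104, 259 and 2151 TPM in WT. The mean log2 CPM (counts scaled to the library total) over the 10 genes was also highest in WT replicate 3, at 3.10, against -0.83 to 1.88 in the other brain libraries.

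In brain, none of the 30 genes passed the test between KO and WT mice. The test was edgeR's quasi-likelihood test with genes called at a Benjamini-Hochberg adjusted p under 0.05 over all genes, and it called 0 of the 30, where 7 of 14385 genes tested were called, 0.0487% (0.0139% higher and 0.0348% lower in KO). DESeq2 and limma-voom called none of the 30 either. At an unadjusted p under 0.05, 2 of the 30 passed, Gjb6 and Aldh1l1, against 6.58% of all genes. The same pair were the 2 of 30 whose KO libraries all lay above all WT libraries, against 6.53% of all genes, and no member lay below without overlap, against 5.99%. The median log2 fold change, KO over WT, was 0.10 over the 14 astrocyte genes, 11 of them positive, and 0.06 over the 16 oligodendrocyte genes, 12 of them positive. Over all genes tested the median was -0.0015 and 49.6% were positive. In whole tissue, fewer cells of a type and less RNA per cell cannot be told apart.

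**Figure D1:**
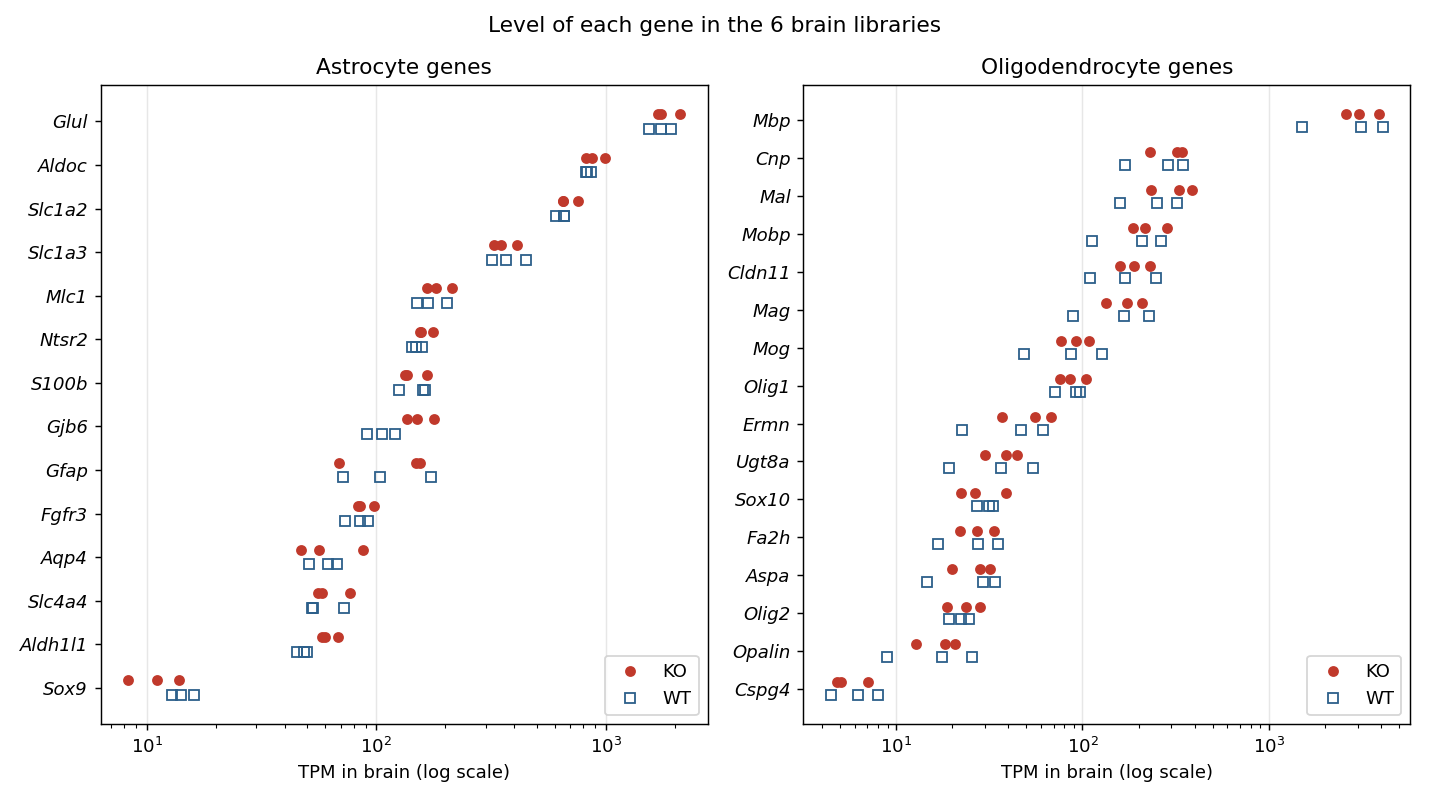
Level of each gene in the 6 brain libraries, in TPM on a log axis, KO as filled red circles above WT as open blue squares in each row, astrocyte genes left and oligodendrocyte genes right, ordered by mean. KO and WT points are separate for Gjb6 and Aldh1l1 and overlap for the other 28 genes.

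Among the astrocyte genes, the most abundant served glutamate handling and energy metabolism. Glul, glutamine synthetase, had 1744, 1697 and 2109 TPM in KO brains against 1924, 1736 and 1547 TPM in WT brains. Aldoc, a glycolytic aldolase, had 818, 869 and 990.4 TPM in KO brains against 821, 831 and 866 TPM in WT brains. Slc1a2, the main glutamate transporter of adult astrocytes, had 649.6, 649.9 and 759 TPM in KO brains against 662, 656 and 605 TPM in WT brains. For all 3 genes the groups overlapped, with KO replicate 3 the highest of the 6 libraries. Slc1a3, a second glutamate transporter, had 351, 326 and 412 TPM in KO brains and 449, 320.1 and 369 TPM in WT brains, with WT replicate 1 the highest and the groups mixed. None of the 4 was called. Their log2 fold changes were 0.09 for Glul (95% interval -0.21 to 0.39), 0.09 for Aldoc (-0.15 to 0.33), 0.11 for Slc1a2 (-0.14 to 0.37) and -0.06 for Slc1a3 (-0.38 to 0.26).

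Gjb6, a gap junction connexin of astrocytes, had 151, 136 and 179 TPM in KO brains against 106, 91.5 and 121 TPM in WT brains. All 3 KO libraries lay above all 3 WT libraries. The log2 fold change was 0.54 (SE 0.13, 95% interval 0.24 to 0.85, edgeR adjusted p = 0.668), so it did not pass over all genes. Aldh1l1, a folate enzyme used as a pan-astrocyte marker, had 59.7, 58.3 and 68.1 TPM in KO brains against 45.1, 48.7 and 50.2 TPM in WT brains. Here too the groups did not overlap, and the log2 fold change was 0.37 (SE 0.09, 95% interval 0.15 to 0.59, edgeR adjusted p = 0.679). Sox9, a transcription factor of the glial lineage, had 11.1, 8.31 and 13.9 TPM in KO brains against 16.1, 13 and 14.1 TPM in WT brains, with 2 KO libraries below every WT library and KO replicate 3 between them. Its log2 fold change was -0.37 (SE 0.18, edgeR adjusted p = 0.752). Gjb6, Aldh1l1 and Sox9 kept the sign of these values when any 1 of the 6 libraries was left out.

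Gfap, the intermediate filament that rises in reactive astrocytes, differed more between libraries of a genotype than between genotypes. It had 156, 68.7 and 149 TPM in KO brains against 104, 71.5 and 174 TPM in WT brains, a log2 fold change of 0.09 (SE 0.37, 95% interval -0.77 to 0.95, edgeR adjusted p = 0.971). The 3 libraries with the higher values, KO replicates 1 and 3 and WT replicate 3, were the 3 with low striatum genes. The striatum level was split into 2 classes, low for these 3 libraries and high for KO replicate 2 and WT replicates 1 and 2. With this class as a term in the fit, a setting chosen after the data were seen, the value for Gfap was -0.26. The part of dissection in it was not tested further. Aqp4, the water channel of astrocyte end-feet, had 87.8, 47.1 and 56.6 TPM in KO brains and 67.4, 51.0 and 61.5 TPM in WT brains. KO replicate 1 was highest and KO replicate 2 lowest. Slc4a4, the sodium bicarbonate cotransporter, had 77.1, 58.3 and 56.0 TPM in KO brains and 72.6, 53.3 and 52.7 TPM in WT brains, with 1 high library in each group.

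The remaining astrocyte genes gave near-level values. S100b, a calcium-binding protein, had 137, 167 and 133 TPM in KO brains and 160.1, 163 and 126 TPM in WT brains, and Fgfr3, a fibroblast growth factor receptor, had 85.2, 83.6 and 98.1 TPM in KO brains and 84.8, 73.2 and 92.4 TPM in WT brains. Both sets of libraries overlapped. Mlc1, a membrane protein of perivascular end-feet, lay between 151 and 215 TPM and Ntsr2, a neurotensin receptor, between 144 and 176 TPM over the 6 libraries. The log2 fold changes of these 4 genes ran from -0.06 for S100b to 0.10 for Fgfr3. SE values of the 14 astrocyte genes had a median of 0.13 and ran from 0.09 for Ntsr2 to 0.37 for Gfap.

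**Figure D2:**
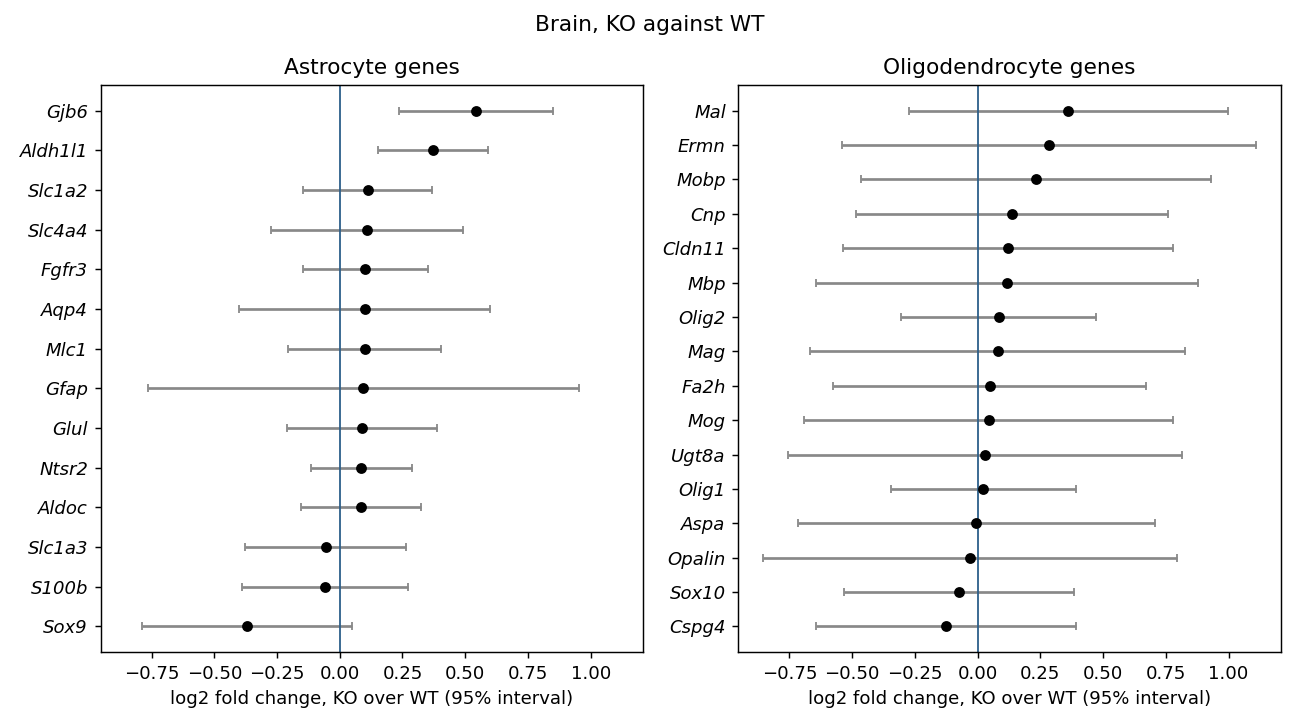
Log2 fold change in brain, KO over WT, of each astrocyte gene (left) and oligodendrocyte gene (right), with 95% intervals from the edgeR fit of 3 against 3 libraries. The intervals of Gjb6 and Aldh1l1 lie above 0, those of the other 28 genes include 0, and none passed the adjusted test.

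Among the oligodendrocyte genes, the structural proteins of myelin were the most abundant and moved as a block between single libraries. Mbp, myelin basic protein, had 3071, 2593 and 3909 TPM in KO brains against 3139, 4102 and 1509 TPM in WT brains. The highest and the lowest value were both WT, in replicates 2 and 3, and the log2 fold change was 0.12 (SE 0.33, 95% interval -0.64 to 0.88, edgeR adjusted p = 0.956). Mal, a proteolipid of myelin and of lymphocytes, had 331, 232 and 385 TPM in KO brains against 250.2, 324 and 159.6 TPM in WT brains. It had the smallest p of the 16, with a log2 fold change of 0.36 (SE 0.27, edgeR adjusted p = 0.814) and overlapping groups. Cnp, a cyclic nucleotide phosphodiesterase of myelin, had 322, 229.5 and 342 TPM in KO brains against 289, 348 and 169 TPM in WT brains. Mobp, a small basic protein of the compact sheath whose promoter stretch is given above, had 216, 186 and 284 TPM in KO brains against 210.02, 263 and 113 TPM in WT brains. Both genes again had WT replicate 3 lowest. Their log2 fold changes were 0.14 for Cnp (SE 0.27, edgeR adjusted p = 0.933) and 0.23 for Mobp (SE 0.30, edgeR adjusted p = 0.896).

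Ermn, an oligodendrocyte cytoskeletal protein, had 67.7, 36.9 and 55.4 TPM in KO brains against 46.7, 61.4 and 22.7 TPM in WT brains, a log2 fold change of 0.28 (SE 0.36, edgeR adjusted p = 0.893). The highest value was in KO and the lowest in WT, with overlap. The enzymes of myelin lipid were Ugt8a, which makes galactosylceramide, and Fa2h, which hydroxylates its fatty acids. Ugt8a had 44.3, 30.1 and 38.7 TPM in KO brains against 36.5, 54.0 and 19.2 TPM in WT brains. Fa2h had 27.2, 22.1 and 33.5 TPM in KO brains against 27.6, 35.1 and 16.9 TPM in WT brains. Aspa, which cleaves N-acetylaspartate, had 31.7, 19.8 and 28.3 TPM in KO brains against 29.2, 34.1 and 14.6 TPM in WT brains. In all 3 enzymes WT replicate 2 was the highest library and WT replicate 3 the lowest. Their log2 fold changes lay between -0.0046 for Aspa and 0.05 for Fa2h.

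The surface and junction proteins of the sheath gave the same picture. Mog, a protein of the outer myelin surface, lay between 76.8 and 108 TPM in KO brains and between 48.8 and 128 TPM in WT brains. Mag, an adhesion protein of the layer next to the axon, lay between 134 and 209 TPM in KO brains and between 88.5 and 227 TPM in WT brains. Cldn11, the claudin of myelin tight junctions, lay between 159 and 232 TPM in KO brains and between 109 and 247 TPM in WT brains. In each of these 3 genes both ends of the range over the 6 libraries were WT. Opalin, an oligodendrocyte membrane protein, had 18.2, 12.8 and 20.6 TPM in KO brains against 17.6, 25.5 and 8.94 TPM in WT brains, a log2 fold change of -0.03 (SE 0.36, 95% interval -0.85 to 0.80). Its sign changed under 5 of the alternative settings that used all 6 libraries, as did that of Aspa.

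Transcription factors and the precursor marker followed the myelin genes less closely. Olig1, a lineage factor, lay between 75.3 and 105 TPM in KO brains and between 70.9 and 96.7 TPM in WT brains, and its neighbour Olig2 between 18.8 and 28.1 TPM in KO brains and between 19.2 and 24.7 TPM in WT brains. Sox10, a factor of oligodendrocytes and Schwann cells, had 26.5, 22.3 and 38.7 TPM in KO brains against 33.2, 31.6 and 27.1 TPM in WT brains, a log2 fold change of -0.07 (SE 0.20, edgeR adjusted p = 0.956). KO replicate 2 was the lowest library for Olig2 and Sox10. Cspg4, the NG2 proteoglycan of precursors and pericytes, had 5.07, 4.82 and 7.06 TPM in KO brains against 6.23, 4.47 and 7.99 TPM in WT brains. It ran against the myelin genes, with WT replicate 3 highest and WT replicate 2 lowest, and its log2 fold change was -0.13 (SE 0.22, edgeR adjusted p = 0.925).

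The spread of the oligodendrocyte genes in brain therefore lay between libraries of a genotype, where mouse and dissection cannot be told apart. WT replicate 3 was the lowest of the 6 libraries for 13 of the 16 and WT replicate 2 the highest for 9 of them. The exceptions to the first count were Olig2, Sox10 and Cspg4. Of 10724 genes with a mean above 3 log2 CPM (counts scaled to the library total), 19.6% were lowest in WT replicate 3 and 13.6% highest in WT replicate 2. Summed over the 16 genes, levels were 4723, 3853 and 5824 TPM in KO brains and 4622, 6005 and 2405 TPM in WT brains, which is 4800.2 ± 987 TPM in KO and 4344 ± 1816 TPM in WT (SD, n = 3 each). The 14 astrocyte genes summed to 4666, 4492 and 5415 TPM in KO brains and to 4864, 4403 and 4405 TPM in WT brains, which is 4858 ± 491 TPM in KO and 4558 ± 266 TPM in WT. The SD of log2 CPM among KO libraries had a median of 0.29 over the oligodendrocyte genes and 0.17 over the astrocyte genes. Among WT libraries it had a median of 0.63 over the oligodendrocyte genes and 0.16 over the astrocyte genes, against 0.11 over the 10724 genes.

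Single libraries set the sign of the oligodendrocyte values. With all 6 libraries 12 of 16 were positive. Leaving out WT replicate 3 brought this to 2 of 16 and leaving out KO replicate 3 to 5 of 16. It was 15 of 16 without KO replicate 2 and 14 of 16 without WT replicate 2. With WT replicate 3 left out the median log2 fold change was -0.14, with KO replicate 3 left out it was -0.06, and it reached 0.41 once WT replicate 2 was left out. The astrocyte median stayed between 0.02 and 0.14 in the same 6 fits. WT replicate 3, the library low in myelin genes, was also the one with the most choroid plexus RNA and 1 of the 3 low in striatum RNA. With the low or high striatum class as a term, the oligodendrocyte median was 0.25 and the astrocyte median 0.07, and still none of the 30 was called. What part dissection has in the myelin values was not tested.

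**Figure D3:**
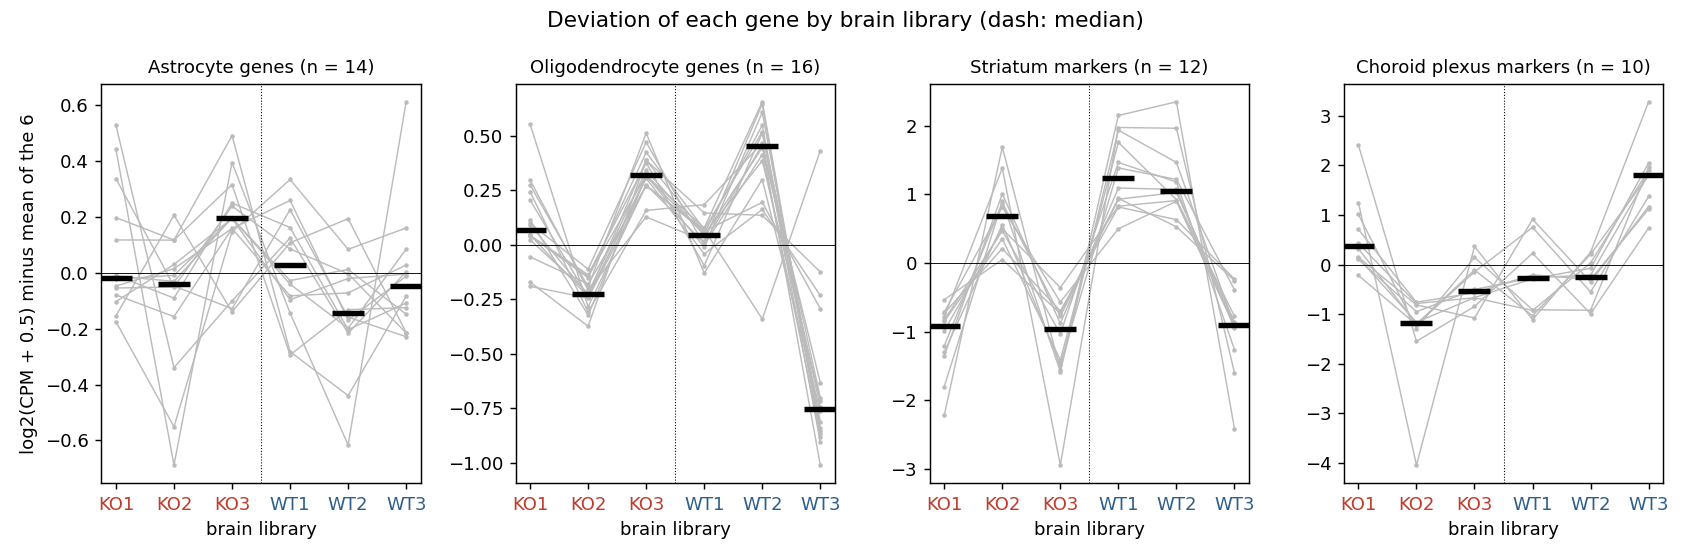
Deviation of each gene from its mean over the 6 brain libraries, on the log2(CPM + 0.5) scale, for the astrocyte genes, the oligodendrocyte genes, striatum markers and choroid plexus markers, KO libraries left of WT libraries; grey lines are genes, black dashes medians, and the vertical scales differ. Nearly all oligodendrocyte genes dip together in WT replicate 3 and peak in WT replicate 2 or KO replicate 3, while astrocyte genes scatter.

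Wider lists of the same cell types, named for this comparison with earlier results of these data known, gave no edgeR call in brain; an unadjusted p under 0.05 was met by 2 of 20 other astrocyte genes, 0 of 20 other myelin genes and 1 of 9 precursor genes. Of 20 other astrocyte genes 13 were positive with a median log2 fold change of 0.07. Sparcl1, a matricellular protein made by astrocytes, had 2025, 1730.2 and 1965 TPM in KO brains against 1516, 1552 and 1562 TPM in WT brains, without overlap, a log2 fold change of 0.30 (SE 0.10, edgeR adjusted p = 0.749). Fabp7, a fatty acid binding protein of glial progenitors, had 78.0, 42.8 and 55.5 TPM in KO brains against 117, 55.0 and 85.4 TPM in WT brains, with overlap, at -0.66 (SE 0.27, edgeR adjusted p = 0.749). Of 20 other myelin and oligodendrocyte genes 13 were positive with a median of 0.09, led by Cryab at 0.34 (SE 0.23) and Gjc3 at 0.28 (SE 0.23). Of these 20, 19 were lowest in WT replicate 3 and 14 highest in WT replicate 2, against 6 and 0 of the 20 other astrocyte genes. Of 9 precursor genes 4 were positive, 2 were lowest in WT replicate 3 and none was highest in WT replicate 2. C1ql1 among them had 6.11, 4.96 and 7.15 TPM in KO brains against 13.7, 6.49 and 9.22 TPM in WT brains, with overlap, at -0.71 (SE 0.29, edgeR adjusted p = 0.749), and Pdgfra, the receptor that defines precursors, lay at 0.12 (SE 0.17).

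Many of the 30 genes were also transcribed in fat or liver. All 30 had at least 1 TPM in all 3 WT brain libraries. By the same rule 18 were expressed in WT IAT (9 astrocyte and 9 oligodendrocyte genes), 11 in WT BAT (7 and 4) and 9 in WT liver (7 and 2). Over all genes, 70.8%, 64.9%, 58.9% and 55.3% met the rule in WT brain, IAT, BAT and liver. Aldh1l1, Aldoc, Fgfr3, Glul, Slc4a4, Cnp and Aspa, 7 genes, were expressed in all 3 peripheral tissues, and 11 in none: Gfap, Aqp4, Gjb6, Mlc1, Mog, Mobp, Cldn11, Opalin, Olig1, Olig2 and Ermn. Opalin had 0 TPM in all 18 libraries outside brain, where a count of 0 allows up to 3 counts, or 0.164 to 0.243 CPM by library.

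**Figure D4:**
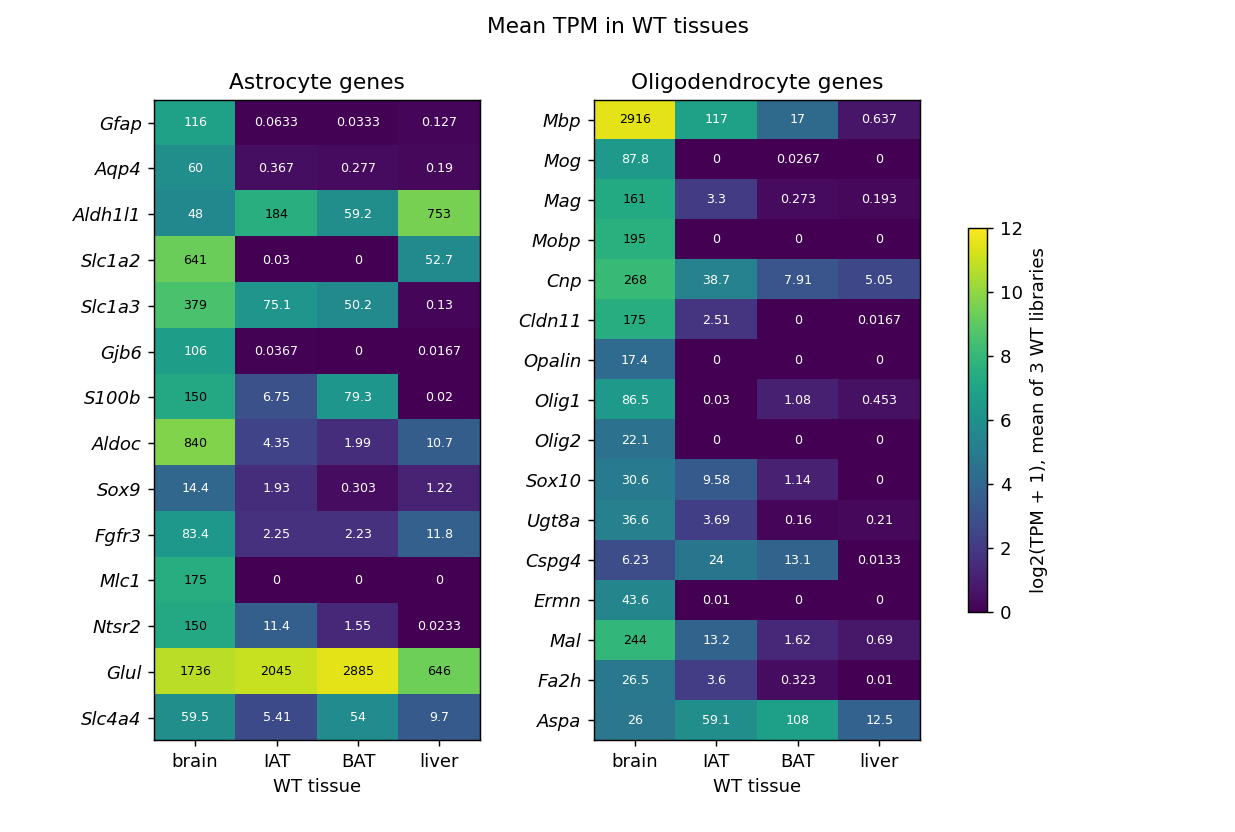
Mean TPM of 3 WT libraries for each gene in brain, IAT, BAT and liver (number in each cell, coloured by log2(TPM + 1)), astrocyte genes left and oligodendrocyte genes right. Glul, Aldh1l1 and Aspa are as high or higher in fat than in brain, and most oligodendrocyte genes are near 0 in BAT and liver.

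Compared within 1 edgeR fit of the 12 WT libraries, 26 of 30 members were higher in brain than in IAT, 24 than in BAT and 27 than in liver, against 40.1%, 40.5% and 42.7% of the 15810 genes tested. Lower in brain were 4 against IAT, 5 against BAT and 3 against liver, where 39.9%, 38.7% and 39.5% of all genes were lower. The members were chosen as brain cell markers, so their being higher in brain was part of the choice. The exceptions were the folate, glutamine, acetylaspartate and bicarbonate genes and Cspg4, called lower in brain against 1 or more tissues, and S100b, not called against BAT. These folds are relative to the median gene: the median log2 difference over all genes was 0.00, 0.02 and 0.09 against IAT, BAT and liver with TMM factors, 0.11, 0.41 and 1.27 without factors, and 0.63, 0.97 and 1.61 on log2(TPM + 1).

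Glul was the most abundant member in WT IAT and WT BAT, and Aldh1l1 in WT liver. Glul had 1924, 1736 and 1547 TPM in WT brain, 2557, 1887 and 1692 TPM in WT IAT, 3377, 2568 and 2711 TPM in WT BAT and 671, 631 and 637 TPM in WT liver. It was lower in brain than in BAT by the edgeR fit (log2 difference -1.92, SE 0.19, edgeR adjusted p = 1.84e-06). Against IAT, whose libraries overlapped those of brain in TPM, the value was -0.99 (SE 0.18, edgeR adjusted p = 0.000382). That call was lost on log2(TPM + 1) (-0.22, limma adjusted p = 0.211) and between KO libraries (-0.63, edgeR adjusted p = 0.0620). Against liver the value was -0.50 (SE 0.18, edgeR adjusted p = 0.0229), but 0.68 without normalization factors and 1.42 on log2(TPM + 1), so its direction depends on the scaling. The liver call was also lost between KO libraries (edgeR adjusted p = 0.0921), without brain WT replicate 3 (edgeR adjusted p = 0.0646) and without liver WT replicate 1 (edgeR adjusted p = 0.0653). Aldh1l1 had 45.1, 48.7 and 50.2 TPM in WT brain, 250.2, 142 and 160.2 TPM in WT IAT, 72.6, 49.2 and 55.9 TPM in WT BAT and 989, 655 and 616 TPM in WT liver. Every IAT and liver library lay far above every brain library, at -2.70 against IAT (SE 0.27, edgeR adjusted p = 2.16e-06) and -5.91 against liver (SE 0.31, edgeR adjusted p = 6.26e-09). Against BAT the value was -1.49 (SE 0.26), but -0.28 and not called on log2(TPM + 1).

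The 2 glutamate transporters differed in the peripheral tissues that held them. Slc1a3 was expressed in fat, with 91.9, 82.4 and 51.0 TPM in WT IAT and 53.9, 45.1 and 51.7 TPM in WT BAT, and had 0.06 to 0.19 TPM in WT liver. Slc1a2 was expressed in liver, with 63.6, 45.6 and 49.0 TPM in WT libraries, and had 0 TPM in all 6 BAT libraries and 0.01 to 0.05 TPM in WT IAT. Slc4a4 had 4.16, 6.56 and 5.5 TPM in WT IAT, 34.1, 64.4 and 63.4 TPM in WT BAT and 9.12, 10.4 and 9.55 TPM in WT liver. Its BAT libraries overlapped the brain range of 52.7 to 72.6 TPM, and brain against BAT gave -1.06 (SE 0.24, edgeR adjusted p = 0.00145) with TMM factors but 0.18 on log2(TPM + 1). S100b, which brown and white adipocytes also make, had 83.2, 87.8 and 66.9 TPM in WT BAT and 3.39, 9.79 and 7.08 TPM in WT IAT, and 0 to 0.06 TPM in WT liver. Brain against BAT was -0.27 (SE 0.26, edgeR adjusted p = 0.361) for S100b with TMM factors and 0.91 on log2(TPM + 1). Sox9 had 1.63, 2.56 and 1.59 TPM in WT IAT and 1.04, 1.31 and 1.32 TPM in WT liver, and Fgfr3 had 11.4, 13.6 and 10.3 TPM in WT liver.

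Aspa and Cspg4 were the oligodendrocyte genes that stood higher in fat than in brain. Aspa had 29.2, 34.1 and 14.6 TPM in WT brain, 80.9, 51.0 and 45.4 TPM in WT IAT, 133, 92.2 and 99.8 TPM in WT BAT and 14.7, 10.4 and 12.2 TPM in WT liver. No fat library overlapped the brain libraries, and the differences were -1.91 against IAT (SE 0.31, edgeR adjusted p = 0.000142) and -3.25 against BAT (SE 0.32, edgeR adjusted p = 2.2e-06). Against liver the value was -0.90 (SE 0.32, edgeR adjusted p = 0.0201) with TMM factors but 0.28 without factors and 0.93 on log2(TPM + 1), and it was not called without liver WT replicate 1 (edgeR adjusted p = 0.0786). Cspg4 had 6.23, 4.47 and 7.99 TPM in WT brain, 30.4, 18 and 23.6 TPM in WT IAT and 14.1, 12.1 and 13 TPM in WT BAT, and at most 0.03 TPM in WT liver. Its brain libraries lay below all fat libraries, at -2.70 against IAT (SE 0.25) and -2.26 against BAT (SE 0.24).

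**Figure D5:**
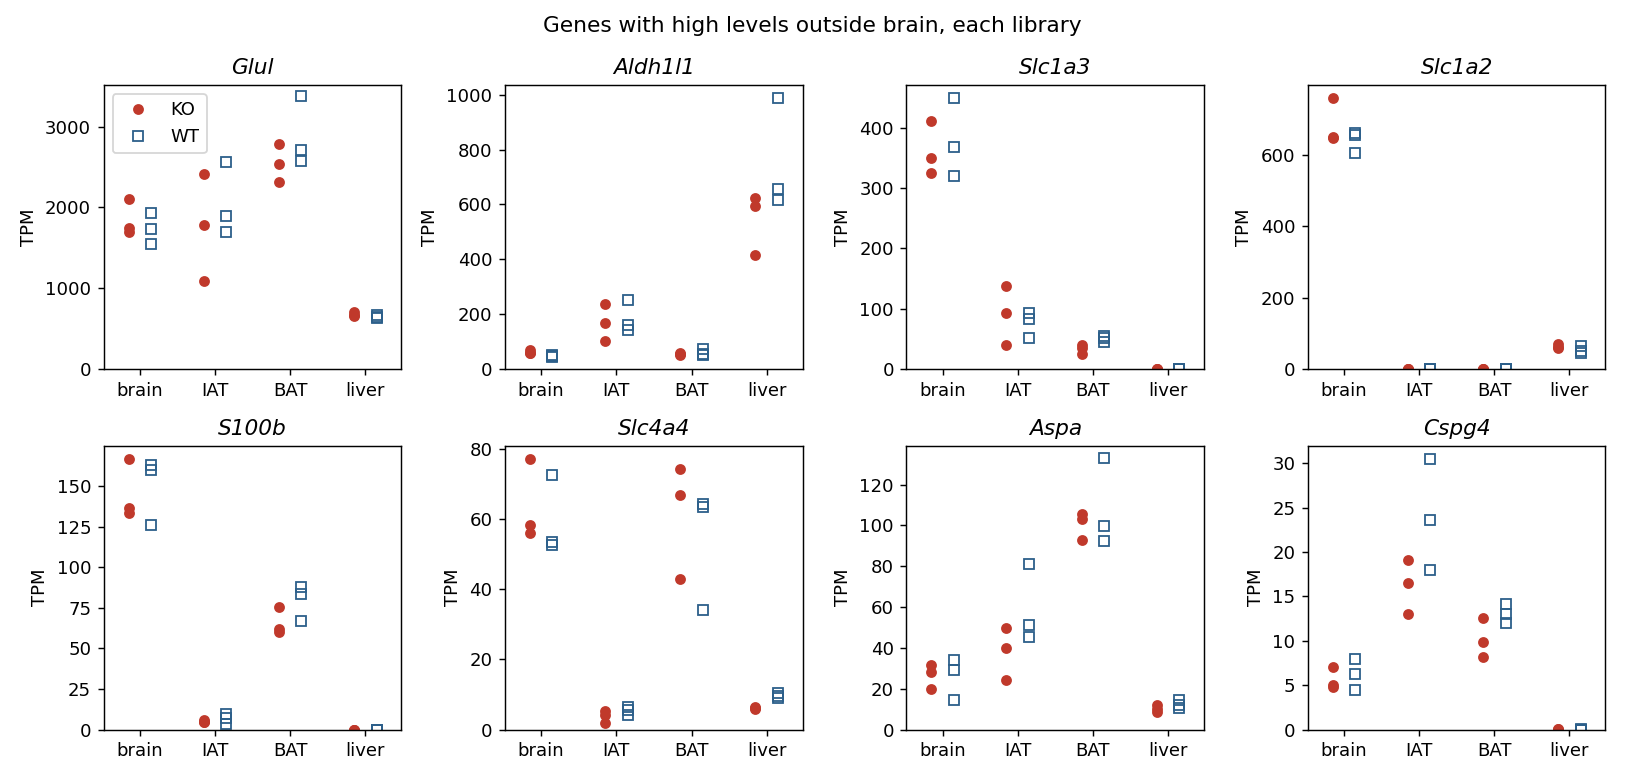
TPM of 8 genes with high levels outside brain, in every library of brain, IAT, BAT and liver, KO as filled red circles left of WT as open blue squares; each panel has its own linear scale from 0. Aldh1l1 is highest in liver, Aspa and Glul in BAT and Cspg4 in IAT, and Slc4a4 in liver is the one gene and tissue here where the KO test was passed.

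The other oligodendrocyte genes expressed in WT IAT were Mbp, Mag, Mal, Cnp, Sox10, Ugt8a and Fa2h. Mbp had 105, 90.3 and 98.9 TPM in KO IAT and 63.9, 180.2 and 108 TPM in WT IAT. Sox10 had 10.3, 8.17 and 9.71 TPM in KO IAT and 9.51, 11.6 and 7.62 TPM in WT IAT. Both ranges overlapped between genotypes. Ugt8a had 2.52, 2.62 and 2.87 TPM in KO IAT and 1.81, 5.54 and 3.71 TPM in WT IAT. Fa2h had 3.13, 2.26 and 2.82 TPM in KO IAT and 1.71, 5.59 and 3.50 TPM in WT IAT. In Mbp, Mag, Mal, Ugt8a and Fa2h alike WT replicate 2 was the highest of the 6 IAT libraries and WT replicate 1 the lowest. Summed over 8 Schwann cell genes, levels were 387, 458 and 414 TPM in KO IAT and 555, 693 and 617 TPM in WT IAT, with none of the 8 at 0 in any of these libraries. Pmp22 made up most of each sum, with 329, 383 and 348 TPM in KO IAT and 479, 590 and 510 TPM in WT IAT. Of the 8 genes 3 were lower in KO without overlap, against 9.65% of all genes, and edgeR called none. Cldn11, a claudin of central myelin, was also seen in IAT, with 5.63, 1.69 and 3.30 TPM in KO and 0.24, 3.77 and 3.52 TPM in WT. Mog, Mobp, Opalin, Olig1, Olig2 and Ermn had at most 0.13 TPM in any IAT library. The cells that gave these transcripts in IAT were not tested.

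In IAT, edgeR called 0 of 14097 genes between KO and WT, 0%, and so none of the 19 members tested there, while DESeq2 called 1138 genes. Fgfr3 came nearest, with 4.34, 4.29 and 4.99 TPM in KO IAT against 2.83, 1.86 and 2.05 TPM in WT IAT. All KO libraries lay above all WT libraries, as in 8.81% of all genes (9.65% lay below), and the log2 fold change was 0.92 (SE 0.22, edgeR adjusted p = 0.224). DESeq2 called it (adjusted p = 0.0139), as did edgeR in 1 fit of all 24 libraries (adjusted p = 0.00952). It was also the one member of the 19 with an unadjusted p under 0.05, against 15.8% of all genes. IAT libraries were uneven in other cells: 9 lymphocyte genes summed to 1736, 7.33 and 864 TPM in KO replicates 1 to 3 and 15.5 to 21.6 TPM in WT, and 9 muscle genes to 13 to 49.0 TPM in KO and 1353, 4838 and 7.42 TPM in WT replicates 1 to 3. In KO replicates 1 to 3 the lymphocyte gene Cd79a had 546, 0.13 and 277 TPM. The adipocyte gene Fabp4 had 16572, 47649 and 32642 TPM. In both genes KO replicate 3 lay near the middle of the other KO libraries. So it did for the members Glul (1089, 2418 and 1775 TPM) and Aldh1l1 (103, 236 and 169 TPM), but not for Fgfr3. Across genes, KO replicate 3 correlated at 0.983 with KO replicate 1 and 0.945 with KO replicate 2 (log2 CPM). Those 2 correlated at 0.896 with each other. Whether KO replicate 3 came from a separate mouse was not tested. The SE, overlap and calls given for IAT count it as a separate mouse.

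Neuron genes, 10 in the list, summed to 16.5, 3.25 and 9.63 TPM in KO IAT and 1.92 to 2.38 TPM in WT IAT. Stmn2 made up most of the KO sums, with 13.2, 2.1 and 7.33 TPM in KO IAT. Some members were high in the same libraries as one of these lists. Cnp had 103, 25.9 and 66.6 TPM in KO IAT against 26.1, 45.8 and 44.1 TPM in WT IAT, highest in the 2 KO libraries rich in lymphocyte genes. Slc1a2 had 0.56, 0.00 and 0.55 TPM in KO IAT and 0.01 to 0.05 TPM in WT IAT, and Mlc1 had 0.76, 0.00 and 0.31 TPM in KO IAT and 0 TPM in all 3 WT libraries. Neither passed the filter of the 6-library fit, both were called in the 24-library fit, and Slc1a2 was called without KO replicate 2. Aqp4, which fast muscle fibres also make, had its 2 highest levels outside brain in libraries rich in muscle genes, 0.87 TPM in WT IAT replicate 2 and 0.83 TPM in WT BAT replicate 1, and at most 0.32 TPM in the other libraries, among them 0.23 TPM in WT IAT replicate 1, which was also rich in muscle genes. The part of lymphocyte, neuron and muscle RNA in these values was not tested.

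In BAT, 68 of 12588 genes were called, 0.54%, and none of the 16 members tested, of which 2 had an unadjusted p under 0.05, against 18.5% of all genes. Aldoc had 0.98, 0.51 and 0.93 TPM in KO BAT against 2.07, 2.37 and 1.52 TPM in WT BAT, a log2 fold change of -1.19 (SE 0.32, edgeR adjusted p = 0.143). Slc1a3 had 39.2, 34.0 and 25.1 TPM in KO BAT against 53.9, 45.1 and 51.7 TPM in WT BAT, a log2 fold change of -0.52 (SE 0.15, edgeR adjusted p = 0.149). In both, all KO values lay under all WT values, as in 11.3% of all genes. DESeq2 called Slc1a3 (adjusted p = 0.0284) and the 24-library edgeR fit called Aldoc (adjusted p = 0.0489). Glul, Slc4a4, S100b, Aldh1l1 and Aspa, the abundant members in BAT, overlapped between genotypes, with log2 fold changes from -0.17 for S100b to 0.28 for Slc4a4.

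Liver gave the one call among the 30 genes. There 137 of 12331 genes were called, 1.11% (0.576% higher and 0.535% lower in KO), and 1 of 12 members tested, Slc4a4. It fell to 6.27, 6.33 and 5.98 TPM in KO livers, against 9.12, 10.4 and 9.55 TPM in WT livers. The KO values lay close together and all below WT, and the log2 fold change was -0.56 (SE 0.08, edgeR adjusted p = 0.0117). Without WT replicate 2 the adjusted p was 0.0651 at a log2 fold change of -0.53, without any other library it was 0.0333 to 0.0490, and in the 24-library fit it was 0.641. Slc4a4 was not called in the other tissues, at 0.11 in brain (SE 0.16), -0.56 in IAT (SE 0.42) and 0.28 in BAT (SE 0.29), but the difference of its KO effect between the 4 tissues did not pass a test of its own (edgeR adjusted p = 0.412).

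Mbp was near the detection limit in liver, at 0.27, 0.13 and 0.22 TPM in KO livers against 0.56, 0.83 and 0.52 TPM in WT livers, or 8 to 15 counts in KO and 27 to 47 counts in WT. The groups did not overlap, and the log2 fold change was -1.53 (SE 0.31, edgeR adjusted p = 0.0630). It was called with no filter on low counts (edgeR adjusted p = 0.0442) and by DESeq2 (adjusted p = 0.0259). Mal, at 0.31, 0.16 and 0.51 TPM in KO livers and 0.57 to 0.75 TPM in WT livers, also lay below without overlap, at -1.0 (SE 0.40, edgeR adjusted p = 0.256). Lower without overlap in liver were 11% of all genes. Slc4a4, Mbp and Mal were the members with an unadjusted edgeR p under 0.05 in liver, against 16.1% of all genes.

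Some markers of bile duct cells, which also use Slc4a4, were lower in KO livers too. Summed over 5 bile duct genes, levels were 41.6, 45.5 and 40.3 TPM in KO livers against 94.3, 139 and 111 TPM in WT livers, without overlap. Spp1 made up most of each sum, with 38.5, 42.0 and 34.7 TPM in KO livers against 88.25, 132 and 105 TPM in WT livers. Of the 4 of 5 tested, Spp1 (log2 fold change -1.40, edgeR adjusted p = 0.00106) and Epcam (-1.33, edgeR adjusted p = 0.0410) were called lower in KO. Krt7 was at -0.83, and Krt19, whose groups overlapped in TPM, was at -0.21. The part of bile duct RNA in the Slc4a4, Mbp and Mal values was not tested. The metabolic members of liver did not pass the test: Aldh1l1 had 625, 415 and 595 TPM in KO livers against 989, 655 and 616 TPM in WT livers, at -0.38 (SE 0.22, edgeR adjusted p = 0.445). Glul had 658, 702 and 669 TPM in KO livers against 671, 631 and 637 TPM in WT livers, at 0.15 (SE 0.10, edgeR adjusted p = 0.492). Its groups overlapped in TPM, but on TMM-scaled counts all KO libraries lay above all WT libraries, as in 10.6% of all genes. Slc1a2 had 61.8, 58.7 and 69.8 TPM in KO livers against 63.6, 45.6 and 49.0 TPM in WT livers, at 0.20 (SE 0.15, edgeR adjusted p = 0.552). Of 7 genes of the perivenous hepatocytes, the cells that make glutamine in liver, edgeR called none. Of the 7, 1 had an unadjusted p under 0.05, against 16.1% of all genes.

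The effect of genotype was also compared between the 4 tissues in 1 fit of the 24 libraries. It differed for 68 of 16169 genes, 0.421%, by the edgeR F-test, and for none of the 30, of which 4 (Aldoc, Fgfr3, Slc1a2 and Mlc1) had an unadjusted p under 0.05, against 18.9% of all genes. The smallest adjusted p among them was that of Aldoc (edgeR adjusted p = 0.135), at 0.09 in brain, -0.35 in IAT, -1.19 in BAT and 0.02 in liver.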

How the data were processed

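RNA was sequenced from 24 libraries of 4 tissues, 3 per genotype and tissue. The authors deposited 1 table of 19015 genes. Its expected counts, estimated reads per gene without normalization, and its TPM values, scaled by length and library, were made by the authors, per the file headers. The submitters' processing notes name the aligner Bowtie2 (2.3.4.3), the quantifier RSEM (1.3.1), DESeq2 (1.4.5) and, as build, GRCm38.p6. Which annotation and filters were used is not given in the sources used here. A further 48 per-sample columns were not used. Gene identifiers matched the reference tables for 18958 genes, including all 30 members. The labels' kit does not state strand, and RSEM shares reads among transcripts, so overlapping genes can borrow reads from each other.

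Expected counts were rounded. Each tissue's 6 libraries were tested with edgeR 4.0.16 in R 4.3.3 (TMM factors, filterByExpr, quasi-likelihood F-test, Benjamini-Hochberg over all genes tested, called under 0.05). SE values came from the F statistic. WT tissues were compared in 1 fit of 12 libraries, and genotype by tissue in 1 fit of 24. Groups were called not overlapping on TMM-scaled counts. List levels are sums of TPM. A gene was called expressed at 1 TPM or more in all 3 WT libraries. DESeq2 1.42.0, limma 3.58.1 (voom, and trend on log2 TPM with pseudocounts of 1 and 0.1), other filters and scalings, a replicate block and leaving out each library were alternatives. The tests were tested on simulated data, with spread taken from the trend over genes. Of 67 genes changed 1.5-fold, the test called 20 in brain, 1 in IAT, 22 in BAT and 28 in liver. Of 67 changed 2-fold, it called 63 in brain, 11 in IAT, 58 in BAT and 59 in liver. Small changes could thus be missed, most of all in IAT.

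The members and gene lists were chosen with earlier results of these data known. The results of 2 genes of these lists, neither a member, are not reported here, and the sums leave them out. Genes given per library were those called in any tissue, the 4 most abundant and the 3 with the smallest p of each group in brain, and those with a WT level outside brain of at least 10% of that in brain, with a few others to complete a role. Library pairs within groups correlated at 0.896 to 0.992 (log2 CPM, across genes), and none agreed within sampling noise. Precision rests on 3 libraries a group, and member counts in brain ran from 126 to 56459 per library.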

Additional observations from a re-analysis of the deposited data

How the results depend on the processing

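In brain none of the 30 members was called under any alternative; of 510 recomputed log2 fold changes 459 kept their sign, 51 changed it, and Aldh1l1, Aldoc, Fgfr3, Gjb6, Mal, Ntsr2, Slc1a2 and Sox9 never did. Genes called in brain numbered 7 in the test reported, 55 with DESeq2, 2 with limma-voom, 11 with the striatum term and 1 to 9 with 1 library left out, the lowest without KO replicate 1 or KO replicate 3. With all 6 libraries the sign changed for Opalin (0.058 with the replicate block, 0.075 with limma-voom, 0.075 on log2(TPM + 1), 0.085 on log2(TPM + 0.1) and 0.16 with the striatum term), for Aspa (0.053, 0.064, 0.091, 0.097 and 0.14 under those settings), and with the striatum term for Gfap (-0.26), Aqp4 (-0.030) and S100b (0.060). Leaving out each library in turn, log2 fold changes ran from -0.15 to 0.50 for Gfap, -0.19 to 0.27 for Aqp4, -0.15 to 0.069 for Slc1a3, -0.19 to 0.023 for S100b, -0.0073 to 0.21 for Mlc1, -0.013 to 0.16 for Glul and -0.048 to 0.26 for Slc4a4. Among oligodendrocyte genes they ran from -0.18 to 0.46 for Mbp, -0.25 to 0.44 for Mog, -0.22 to 0.43 for Mag, -0.047 to 0.54 for Mobp, -0.11 to 0.39 for Cnp, -0.13 to 0.48 for Cldn11, -0.34 to 0.38 for Opalin and -0.12 to 0.13 for Olig1, and from -0.063 to 0.21 for Olig2, -0.33 to 0.080 for Sox10, -0.28 to 0.45 for Ugt8a, -0.31 to 0.089 for Cspg4, -0.028 to 0.64 for Ermn, -0.19 to 0.33 for Fa2h and -0.29 to 0.27 for Aspa. The cause of these changes was not tested.

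Replicate numbers do not pair the mice in the labels. In brain the deviations of same-numbered KO and WT libraries correlated at 0.0087, 0.33 and 0.062, and not every library matched its own number best. With the replicate block the genes called were 4 in brain, 1 in BAT and 234 in liver, and no further member call changed.

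In IAT, the 0 genes and 0 members called became 1138 and 1 with DESeq2 and 2573 and 3 with 1 fit of all 24 libraries, and with 1 library left out 0 to 1760 genes and 0 to 1 members, the highest without KO replicate 2. Leaving out the 2 KO libraries rich in lymphocyte genes together, or the 2 WT libraries rich in muscle genes together, gave 0 genes. In BAT, 68 genes and 0 members became 454 and 1 with DESeq2 and 173 and 1 in the 24-library fit, and 2 to 94 genes with 1 library left out. In liver, 137 genes and 1 member became 218 and 2 with no filter, 378 and 2 with DESeq2, 0 members in the 24-library fit, and 58 to 103 genes and 0 to 1 members with 1 library left out, the lowest without WT replicate 2.

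Members lower in WT brain numbered 3 in place of 5 against BAT on log2(TPM + 1). Against liver they numbered 1 in place of 3 on log2(TPM + 1) and with no normalization factors, and 1 to 3 with 1 library left out. Values that changed sign were S100b against BAT (0.91 on log2(TPM + 1), 0.12 with no factors), Slc4a4 against BAT (0.18 on log2(TPM + 1)), and against liver Glul (1.42 and 0.68) and Aspa (0.93 and 0.28). At a threshold of 5 TPM, 10 members in place of 18 were expressed in WT IAT. The striatum term, the joint removals in IAT and the fit without factors were chosen after the data were seen. The striatum term split the brain libraries at a mean of 5.5 log2 CPM over the striatum genes. With 3 mice a group the 95% intervals of the oligodendrocyte genes in brain reach down to -0.85 and up to 1.11 on the log2 scale.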

Other observations

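Other astrocyte genes were called outside brain. Gja1, a gap junction connexin of astrocytes and many other cells, had 129.6, 126 and 140.1 TPM in KO BAT against 72.0, 82.4 and 84.1 TPM in WT BAT, without overlap, a log2 fold change of 0.83 (SE 0.10, edgeR adjusted p = 0.0192). In brain it had 179, 132 and 167 TPM in KO and 172, 131 and 154 TPM in WT, and its groups overlapped. Ppp1r3c, a glycogen-targeting subunit of protein phosphatase, was called higher in KO liver at 1.40 (SE 0.25, edgeR adjusted p = 0.0422) and lay at 0.85 in BAT (SE 0.25, edgeR adjusted p = 0.160). In liver every KO library lay above every WT library. In BAT it had 267, 199 and 122 TPM in KO against 129, 124 and 96.1 TPM in WT, with overlap in TPM. In liver, Sparcl1 had 2.31, 3.53 and 2.42 TPM in KO against 4.42, 5.85 and 5.21 TPM in WT, without overlap, at -0.81 (SE 0.18, edgeR adjusted p = 0.0803). Of the 20 other astrocyte genes 10 were tested in liver. Lower in KO without overlap were 5 of these, against 11% of all genes, and higher was 1, against 10.6%. An unadjusted edgeR p under 0.05 was met by 7 of the 10, against 16.1% of all genes.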
